A study of Homo sapiens with 18 samples.

Results

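The SOX genes encode transcription factors that bind DNA through an HMG box related to that of SRY, and they are grouped by the similarity of their proteins. The SoxE genes (SOX8, SOX9, SOX10), the SoxD genes (SOX5, SOX6, SOX13), the SoxC genes (SOX4, SOX11) and the SoxB1 gene SOX2 were followed here. SOX10 specifies and maintains the melanocyte lineage, where it activates MITF and pigment genes together with PAX3, whereas SOX9 drives cartilage formation with SOX5 and SOX6. In melanoma, high SOX10 is known to accompany the melanocytic state and high SOX9 a dedifferentiated one.

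These 9 genes were taken by symbol from the 58870 genes of an RNA-seq count table. The table covered 3 human melanoma cell lines, WM164, SKMEL28 and A375, each overexpressing either MAFG, a small MAF transcription factor, or GFP as the control, with 3 libraries for each of the 6 conditions and 18 in all. By the study's methods, MAFG was a tagged cDNA under a constitutive promoter, delivered by lentivirus, and GFP came from the same vector. The sources used here do not say whether the cells were clones or pools, or whether the 3 libraries came from separate cultures, so the p-values measure the spread between these libraries, which may be technical.

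Each of the 9 genes lies on a chromosome of its own. On GRCh38, the SoxE genes are SOX8 (ENSG00000005513.10, chromosome 16 from 981770 to 986979), SOX9 (ENSG00000125398.7, chromosome 17 from 72121020 to 72126416) and SOX10 (ENSG00000100146.17, chromosome 22 from 37970686 to 37987422). The SoxD genes are SOX5 (ENSG00000134532.17, chromosome 12 from 23529504 to 24562544), SOX6 (ENSG00000110693.17, chromosome 11 from 15966449 to 16739591) and SOX13 (ENSG00000143842.15, chromosome 1 from 204073115 to 204127743). The others are SOX2 (ENSG00000181449.4, chromosome 3 from 181711925 to 181714436), SOX4 (ENSG00000124766.6, chromosome 6 from 21593751 to 21598619) and SOX11 (ENSG00000176887.7, chromosome 2 from 5692384 to 5701385). SOX10 shares exonic bases with POLR2F on the opposite strand, SOX4, SOX6 and SOX11 share some with noncoding genes, and SOX2 lies in an intron of the noncoding gene SOX2-OT on the same strand. The use of strand in counting is not stated, so reads in bases shared across strands, those of SOX10 and SOX4, could not be assigned. The genes that share exonic bases with SOX6 and SOX11 lie on the same strand, so strand could not separate them.

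Promoters of the RefSeq table (GRCh38.p14) matched 5 of the 9 genes, with 9 start sites. The windows shown are 3 of these, SOX5 and SOX6 because both changed with MAFG in A375 cells together with SOX10, and SOX2 because its counts left 0 in another line. Each is the stretch of 250 bases before the first listed start, and SOX6 and SOX5 are on the minus strand. Capitals mark matches to 5 short motifs searched on both strands, the E-boxes CATGTG (that of MITF and related factors) and CACGTG, the antioxidant response core TGACNNNGC, TGCTGA (a part of the MAF recognition element) and the SOX core ACAATG.
SOX5, chr12:24562492-24562741: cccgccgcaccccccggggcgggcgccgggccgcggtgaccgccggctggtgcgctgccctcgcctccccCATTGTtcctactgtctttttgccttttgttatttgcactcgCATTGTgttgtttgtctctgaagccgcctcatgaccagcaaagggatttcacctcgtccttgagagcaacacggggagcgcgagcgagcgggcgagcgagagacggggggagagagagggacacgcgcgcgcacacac
SOX6, chr11:16738478-16738727: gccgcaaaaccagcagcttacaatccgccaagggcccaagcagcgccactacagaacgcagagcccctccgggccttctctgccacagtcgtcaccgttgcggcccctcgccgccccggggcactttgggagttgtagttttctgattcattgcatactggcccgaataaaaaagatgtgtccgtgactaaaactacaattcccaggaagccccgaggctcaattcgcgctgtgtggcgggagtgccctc
SOX2, chr3:181711675-181711924: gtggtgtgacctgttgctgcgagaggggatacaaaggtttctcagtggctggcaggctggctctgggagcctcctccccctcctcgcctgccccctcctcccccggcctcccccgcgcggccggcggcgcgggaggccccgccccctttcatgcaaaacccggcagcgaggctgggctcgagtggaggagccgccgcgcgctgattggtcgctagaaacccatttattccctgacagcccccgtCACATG

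The SOX5 window held 2 matches to the SOX core, both on the other strand, 180 and 138 bases before the start. The SOX2 window held 1 match to CATGTG, 6 bases before the start and on the other strand. The first SOX6 window held no match to any of the 5 motifs, nor did those of SOX4 and SOX13. Among the other SOX6 starts, which are not shown, the third held CATGTG and the fourth and the fifth each the SOX core. Among 35116 promoter windows of the same length, 9.29% held the SOX core, 9.42% CATGTG, 6.35% CACGTG, 10.9% TGACNNNGC and 14.0% TGCTGA. None of the windows of the 5 genes held CACGTG, TGACNNNGC or TGCTGA, and no match shared bases with another.

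Library depth, the sum of counts, ranged from 20122172 to 39025042. MAFG itself was higher with its overexpression in every line, at 53.1 ± 4.59 against 25.8 ± 2.91 CPM (counts scaled to the normalised library size, over the 18 libraries; SD, n = 3) in WM164, 37.3 ± 1.54 against 24.1 ± 3.47 in SKMEL28 and 47.3 ± 9.24 against 27.0 ± 4.98 in A375. The log2 fold change was 1.04 (adjusted p = 6.37e-08), 0.64 (adjusted p = 0.000128) and 0.80 (adjusted p = 0.0655) in that order, by the quasi-likelihood test of edgeR with p adjusted after Benjamini and Hochberg, so the A375 value missed the threshold of 0.05 although its libraries did not overlap. In deposited TPM, corrected for gene length, MAFG went from 2.89 ± 0.54 to 24.5 ± 3.34 in WM164 and from 3.96 ± 0.64 to 17.0 ± 2.66 in SKMEL28. In A375 it went from 4.22 ± 0.29 to 25.2 ± 2.88 TPM. Why TPM and CPM differ here was not tested. One A375 MAFG library, replicate 1, stood apart from its replicates (mean chi-square per gene of 68.7 and 96.7 against them, where the other pairs of replicates lay between 5.90 and 30.2). Of 7 melanocyte markers, MLANA and TYR were at 0 in all 6 A375 libraries and DCT reached 1 count in 1 of them, and the markers summed to 22.5 to 33.9 CPM in the A375 libraries, most of it MITF, against 1317 CPM or more in every library of the other lines. TYRP1 was low but higher in A375 than in WM164, at 0.63 ± 0.11 against 0.078 ± 0.11 CPM with GFP, and at 57.8 ± 5.03 CPM in SKMEL28. PMEL and S100B reached 22 and 48 counts in A375 MAFG libraries. Of the marker lists of keratinocytes, blood, endothelium, cartilage and neurons, none summed to more than 69.7 CPM in any library. The highest was the keratinocyte list in A375 GFP cells, at 55.3 to 69.7 CPM, above the melanocyte markers of that line and nearly all KRT10 (61.5 ± 7.28 CPM).

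In cells with GFP, the melanocytic lines and A375 differed in most of these 9 SOX genes. TPM values, which are corrected for gene length and are given as deposited, allow the genes to be compared with each other. SOX10 led in WM164 GFP cells at 290.7 ± 22.6 TPM (SD, n = 3) and in SKMEL28 GFP cells at 273 ± 13.3 TPM, where it made up 82.5% and 78.2% of the summed TPM of the 9 genes. In A375 GFP cells SOX10 stood at 2.61 ± 0.53 TPM, behind SOX9 at 8.86 ± 1.24, SOX13 at 5.10 ± 1.41 and SOX11 at 3.47 ± 0.50. This order covers the 9 genes only. SOX12, which is not among them, was at 10.9 ± 0.77, 9.53 ± 0.38 and 11.2 ± 0.78 TPM in WM164, SKMEL28 and A375 GFP cells. In A375 its libraries lay above those of SOX9. The libraries of SOX9 lay above those of SOX13, whereas SOX13 overlapped with SOX11 and SOX11 with SOX10 in that order of levels. The SoxD genes came next to SOX10 in the melanocytic lines, with SOX5 at 19.1 ± 2.10 and SOX6 at 19.0 ± 4.31 TPM in WM164 (overlapping libraries) and SOX13 at 32.4 ± 2.45 and SOX6 at 29.4 ± 2.16 TPM in SKMEL28 (also overlapping). The 9 genes together reached 353 ± 31.7 TPM in WM164, 349 ± 19.1 in SKMEL28 and 21.6 ± 2.81 in A375 GFP cells. As these are bulk samples, fewer cells expressing a gene and less RNA in each cell cannot be told apart.

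**Figure D1:**
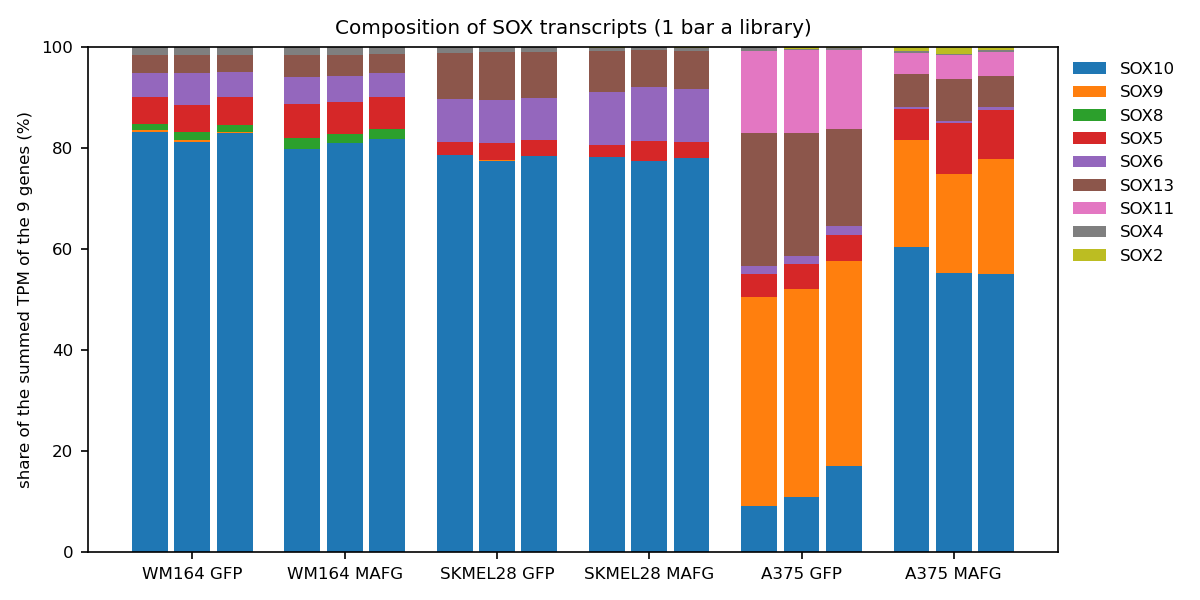
Share of each SOX gene in the summed TPM of the 9 genes (y axis, percent), 1 bar for each of the 18 libraries, grouped by condition on the x axis. SOX10 fills most of each bar in WM164 and SKMEL28, SOX9 has the largest share in A375 with GFP, and SOX10 takes 55.2% to 60.4% in A375 with MAFG.

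Compared on counts in one model of the 18 libraries, all 9 genes were differentially expressed between A375 and WM164 in GFP cells (a term used for an adjusted p up to 0.05 with a change of more than 2-fold, met by 46.7% of all genes tested) and all 9 between A375 and SKMEL28 (43.8% of all genes). SOX10 was at 6.93, 8.15 and 11.5 CPM in the A375 GFP libraries, against 1321 to 1429 CPM in WM164 and 883 to 901 CPM in SKMEL28. This was 155-fold lower than WM164 (95% interval 123 to 195, adjusted p = 8.28e-19) and 101-fold lower than SKMEL28 (80.8 to 126, adjusted p = 2.19e-18; edgeR quasi-likelihood test). SOX6 was at 0.195 to 0.339 CPM in A375 (7 to 13 counts), 537-fold lower than WM164 (449 to 642) and 486-fold lower than SKMEL28 (407 to 581). The difference was smaller in TPM, at 0.367 ± 0.045 in A375 against 19.0 ± 4.31 in WM164 and 29.4 ± 2.16 in SKMEL28. SOX5, SOX4 and SOX13 were lower as well, by 14.3-fold, 79.3-fold and 3.56-fold against WM164 and by 7.03-fold, 34.1-fold and 6.71-fold against SKMEL28. SOX8, a SoxE gene that can act in place of SOX10 in glia, had no count in any A375 library and was at least 341-fold lower than WM164 and at least 3.07-fold lower than SKMEL28, where the bound takes 3 counts in each library of the condition at 0.

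SOX9 and SOX11 went the other way. SOX9 was at 42.2 to 43.6 CPM in the A375 GFP libraries, 5.70-fold higher than WM164 (95% interval 4.50 to 7.23) and 166-fold higher than SKMEL28 (115 to 240), with adjusted p = 4.37e-11 and 1.14e-15 by the edgeR test. SOX11, a gene of neural progenitors, was at 38.6 to 40.3 CPM in A375 and had no count in any of the 12 WM164 and SKMEL28 libraries, a level at least 366-fold and at least 339-fold higher. SOX2, a stem cell factor, had 0, 8 and 4 counts in A375 and none in WM164, so that their libraries overlapped at 0 and the bound was only 1.01-fold although the test passed (adjusted p = 0.0115). Without A375 GFP replicate 2, which held the 8 counts, 8 of the 9 genes were differentially expressed between A375 and WM164. SOX2 was lower in A375 than in SKMEL28, which had 15, 7 and 15 counts (adjusted p = 0.031), and this call was lost without A375 GFP replicate 1 (adjusted p = 0.0913), A375 GFP replicate 3 (0.0617), SKMEL28 GFP replicate 1 (0.0669) or SKMEL28 GFP replicate 3 (0.0689).

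Between the melanocytic lines, 5 of the 9 genes were differentially expressed with GFP (28.7% of all genes). SOX8 was at 25.2 to 30.5 CPM in WM164 and 0.138 to 0.443 CPM in SKMEL28, a 119-fold difference (95% interval 69.4 to 204). SOX9 was 29.1-fold higher in WM164 (19.5 to 43.6), with 157 to 239 counts against 1 to 10. SOX4 and SOX5 were 2.33-fold and 2.04-fold higher in WM164, the latter under the fold limit without SKMEL28 GFP replicate 1 (log2 difference 0.98), and SOX2 was at least 4.19-fold higher in SKMEL28. SOX13 was 1.89-fold higher in SKMEL28 and SOX10 was 1.53-fold higher in WM164 (adjusted p = 0.000258), both under the fold limit, and SOX6 did not pass (1.10-fold, adjusted p = 0.112). SOX10 was nearly level in TPM (log2 difference 0.09 on the log2(TPM + 1) scale, adjusted p = 0.496 with limma), and SOX6 was higher in SKMEL28 there (log2 difference -0.62). The median over all genes was itself -0.264 on that scale. These 3 baseline comparisons share their GFP libraries.

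**Figure D2:**
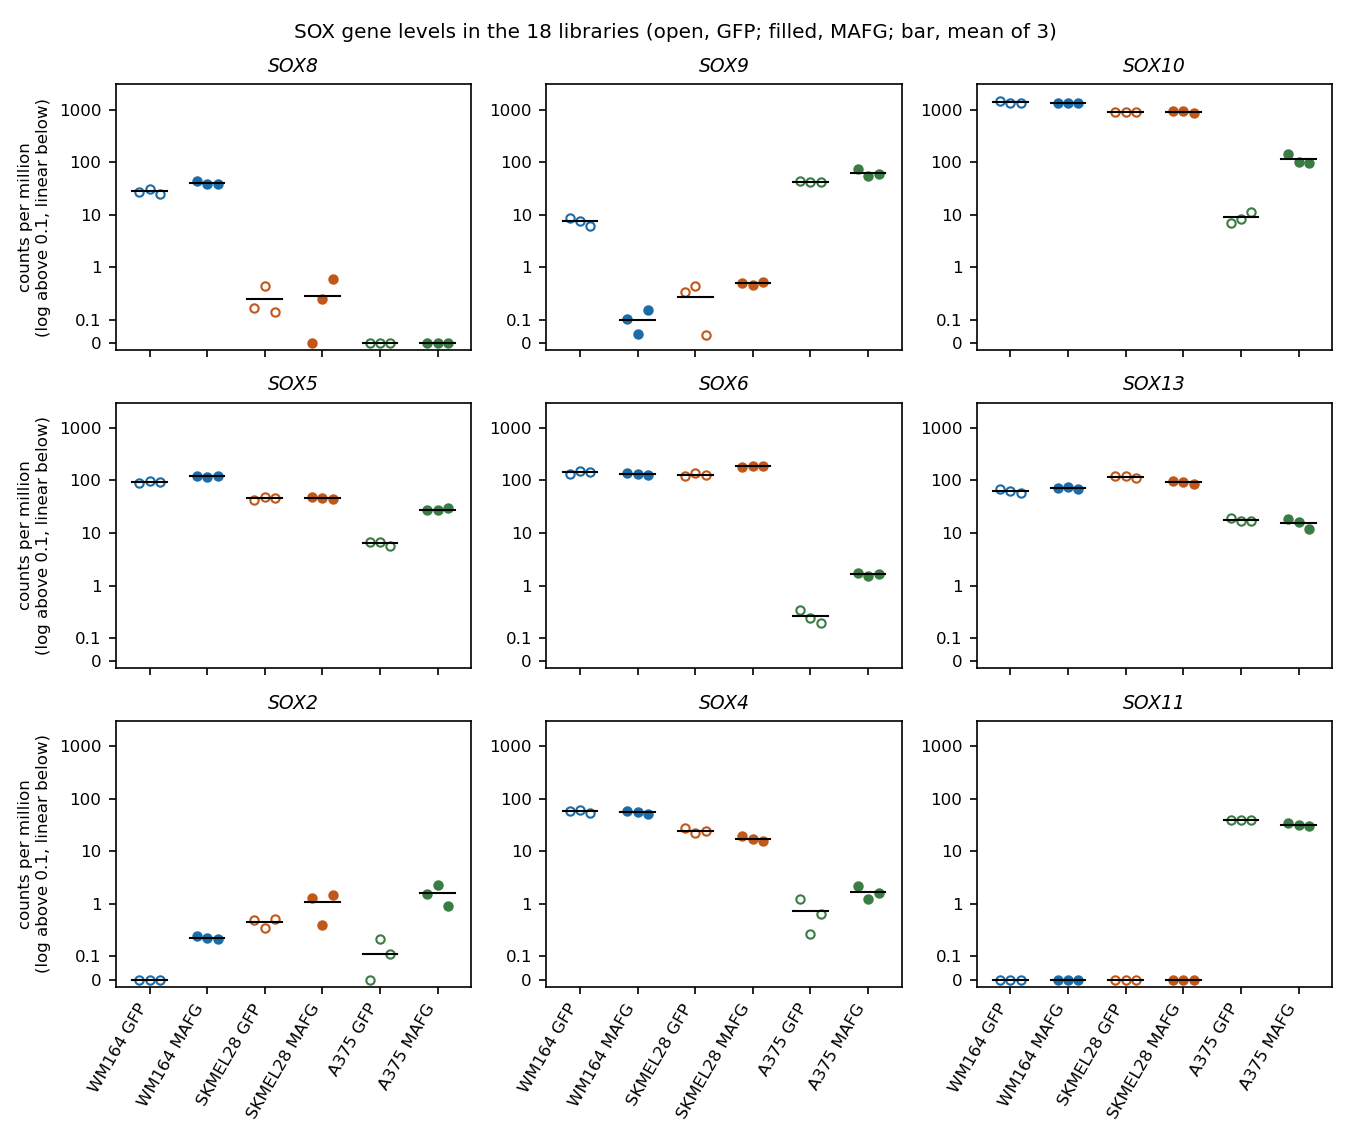
CPM of each SOX gene (y axis, log above 0.1 and linear below) in the 18 libraries by condition (x axis), with open points for GFP, filled points for MAFG and a bar at the mean of 3 libraries. SOX9 drops from 6.20 to 8.53 CPM to 0.155 CPM or less in WM164, and SOX10, SOX5 and SOX6 are higher in each A375 MAFG library than in each A375 GFP library.

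With MAFG in A375 cells, 3 of the 8 SOX genes tested were differentially expressed, all higher (0.665% of all genes tested, 102 of which were higher and 3 lower). The count was the same without the limit on the fold (0.843% of all genes). SOX10 had 266, 300 and 411 counts with GFP and 5630, 3855 and 4208 with MAFG, or 8.85 ± 2.35 and 114 ± 24.5 CPM (SD, n = 3). Every MAFG library lay above every GFP library, and the rise was 12.8-fold (log2 fold change 3.68, SE 0.21, 95% interval 9.67 to 17.0, adjusted p = 2.12e-05, edgeR quasi-likelihood test). SOX10 was then still at 8.34% of its mean CPM in WM164 GFP cells and 12.8% of that in SKMEL28 GFP cells. The gene passed without each library in turn, with log2 fold changes of 3.52 to 3.91, and without the A375 MAFG library that stood apart. POLR2F, which overlaps it on the opposite strand, was at 197 ± 21.3 CPM with GFP and 204 ± 21.3 CPM with MAFG (adjusted p = 0.997).

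SOX5 and SOX6, the SoxD genes that lack a transactivation domain of their own and modulate SOX10 and SOX9 at shared sites, were the others. SOX5 had 260, 253 and 204 counts with GFP and 1064, 1012 and 1261 with MAFG. The groups did not overlap and the rise was 4.28-fold (log2 fold change 2.10, SE 0.14, 95% interval 3.56 to 5.15, adjusted p = 4.75e-05), kept without each library in turn. SOX6 had 13, 9 and 7 counts with GFP and 69, 57 and 70 with MAFG, 6.17-fold higher (log2 fold change 2.63, SE 0.48, 95% interval 3.20 to 11.9, adjusted p = 0.037). The SOX6 call was lost without any one of the 6 libraries (adjusted p = 0.0503 to 0.17), and its deposited TPM went the other way, from 0.367 ± 0.045 with GFP to 0.253 ± 0.057 with MAFG, so its direction depends on the table used. SOX13, the remaining SoxD gene, was at 17.6 ± 1.41 and 15.5 ± 3.17 CPM (adjusted p = 0.997).

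The other SOX genes of A375 did not pass. SOX9 was at 42.2 to 43.6 CPM with GFP and 54.5 to 74.1 with MAFG, groups that did not overlap, with a log2 fold change of 0.55 (SE 0.12, adjusted p = 0.076). Without A375 MAFG replicate 1 its adjusted p was 0.0207, at a log2 fold change of 0.45, and it passed with DESeq2 (adjusted p = 0.0055) and without the count filter (0.0039). SOX2 had 0, 8 and 4 counts with GFP and 62, 88 and 39 with MAFG, a log2 fold change of 3.83 (SE 0.85, adjusted p = 0.0967) that passed without the count filter (adjusted p = 1.79e-05) and with DESeq2 (adjusted p = 0.000281). SOX4, a SoxC gene, had 48, 10 and 23 counts against 88, 46 and 70, which overlap (adjusted p = 0.8, or 0.0304 with the spread of all 18 libraries). SOX11 was at 39.6 ± 0.90 and 31.9 ± 2.16 CPM, with every MAFG library below every GFP library (log2 fold change -0.32, SE 0.10, adjusted p = 0.414). SOX8 had no count in any A375 library, which allows up to 3 counts in each.

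These changes moved the balance of the SoxE genes in A375. The ratio of SOX10 to SOX9 in TPM was 0.222 to 0.422 with GFP and 2.44 to 2.84 with MAFG, so the more abundant of the pair was SOX9 in each GFP library and SOX10 in each MAFG library. SOX10 made up 18.1% to 29.7% of the SoxE TPM with GFP and 70.9% to 74.0% with MAFG, against 97.4% or more in every WM164 and SKMEL28 library. The summed TPM of the 9 genes went from 21.6 ± 2.81 to 56.4 ± 3.25.

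With MAFG in WM164 cells, SOX9 was the single SOX gene of 7 tested that was differentially expressed (6.94% of all genes). It had 239, 232 and 157 counts with GFP and 3, 1 and 5 with MAFG, or 7.48 ± 1.18 and 0.0988 ± 0.059 CPM. The groups lay far apart, and SOX9 fell 70.4-fold (log2 fold change -6.14, SE 0.33, 95% interval 44.7 to 111, adjusted p = 1.25e-10, edgeR), with log2 fold changes between -6.63 and -5.79 without each library in turn. The summed melanocyte markers went from 3266 to 3673 CPM with GFP to 1317 to 1435 CPM with MAFG in the same libraries, and their part in the result was not tested. At an adjusted p of 0.05 or less with no limit on the fold, 4 of 7 passed (31.8% of all genes). SOX8 rose from 25.2 to 30.5 CPM with GFP to 38.3 to 44.4 CPM with MAFG (log2 fold change 0.54, SE 0.09, adjusted p = 0.000107), which did not pass with the spread of all 18 libraries (adjusted p = 0.152). SOX5 rose from 88.7 to 95.6 CPM to 116 to 124 CPM (log2 fold change 0.38, SE 0.06, adjusted p = 4.2e-05). SOX13 rose by a log2 fold change of 0.21 (SE 0.07, adjusted p = 0.0347), a call lost without GFP replicate 2 (adjusted p = 0.0823), GFP replicate 3 (0.195), MAFG replicate 1 (0.0839) or MAFG replicate 2 (0.163).

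SOX10, by far the most abundant SOX gene of WM164, was at 1321 to 1429 CPM with GFP and 1321 to 1340 CPM with MAFG. The groups overlapped, with a 1.03-fold lower level and a 95% interval of 0.962 to 1.11 for that fold (adjusted p = 0.568). SOX6 and SOX4 had log2 fold changes of -0.10 (SE 0.06, adjusted p = 0.207) and -0.06 (SE 0.07, adjusted p = 0.538). SOX2 had 0 counts in all 3 GFP libraries and 7, 6 and 7 with MAFG, at least 2.10-fold higher, and was too low for the count filter and so not tested. It was differentially expressed in WM164, besides SOX9, with DESeq2, without the count filter and with all 18 libraries in one model. SOX11 had no count in either condition. SOX2-OT, in whose intron SOX2 lies, had 4, 1 and 9 counts with GFP and 41, 61 and 75 with MAFG and rose 11.5-fold (log2 fold change 3.52, SE 0.55, adjusted p = 8.16e-05). Of the 5 noncoding genes listed at SOX loci, SOX6-AS1 was not found in the table by this symbol, and SOX9-AS1, SOX5-AS1 and SOX21-AS1 had too few counts to be tested in any line.

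With MAFG in SKMEL28 cells, none of the 7 SOX genes tested was differentially expressed in edgeR (4.74% of all genes) nor with DESeq2, 4 had an unadjusted p under 0.05, and 3 passed the adjusted p of 0.05 with no limit on the fold (29.9% of all genes). SOX6 rose from 122 to 139 CPM with GFP to 183 to 189 CPM with MAFG, without overlap (log2 fold change 0.53, SE 0.06, adjusted p = 6.34e-06), although its TPM gave a smaller change that did not pass (log2 0.17, adjusted p = 0.203 with limma on log2(TPM + 1), where the median of all genes was -0.124). SOX13 fell from 110 to 123 CPM to 84.4 to 98.2 CPM (log2 fold change -0.35, SE 0.07, adjusted p = 0.000961). SOX4 fell from 22.5 to 27.5 CPM to 15.5 to 19.2 CPM (log2 fold change -0.53, SE 0.10, adjusted p = 0.00113, or 0.0557 with the spread of all 18 libraries). Both groups were apart in both genes. SOX10 was at 883 to 901 CPM with GFP and 865 to 941 CPM with MAFG (1.02-fold, adjusted p = 0.74), and SOX5 at 41.9 to 48.2 and 45.1 to 47.4 CPM (adjusted p = 0.792).

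The rare SOX genes of SKMEL28 gave wide errors. SOX2 had 15, 7 and 15 counts with GFP and 39, 11 and 40 with MAFG, which overlap (log2 fold change 1.21, SE 0.53, adjusted p = 0.103). It would have been called without MAFG replicate 2, at a log2 fold change of 1.60 (adjusted p = 0.0274). SOX9 had 10, 9 and 1 counts against 15, 13 and 14 (log2 fold change 0.92, SE 0.69, adjusted p = 0.351). SOX8 had 5, 9 and 4 counts against 0, 7 and 16 and was not tested, and SOX11 had none.

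**Figure D3:**
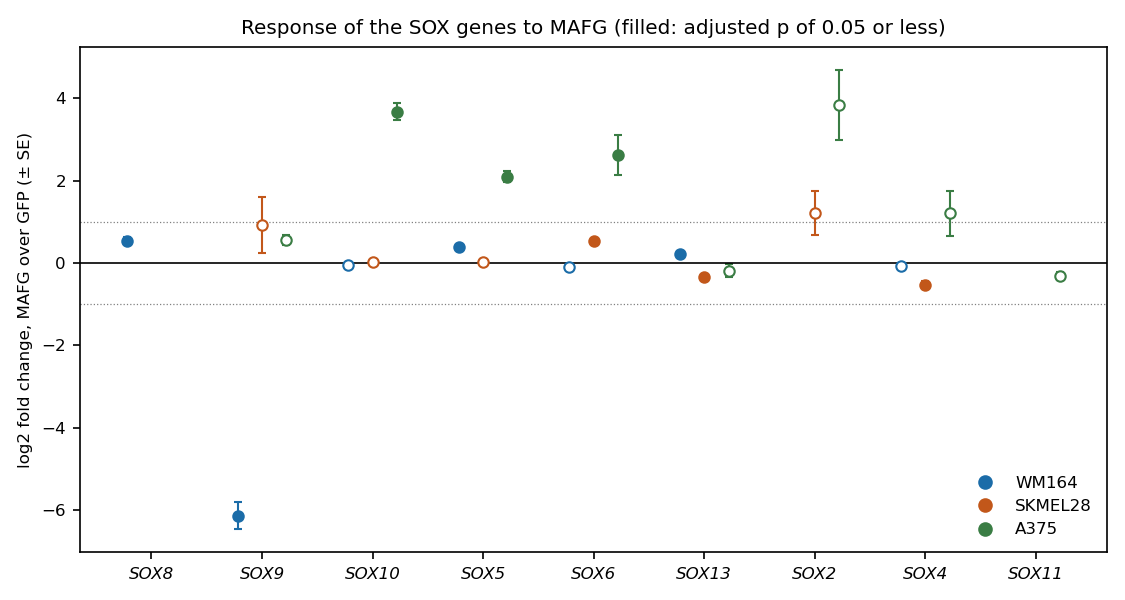
Log2 fold change of MAFG over GFP (y axis, points with SE from edgeR) for each SOX gene (x axis) in WM164, SKMEL28 and A375, with filled points at an adjusted p of 0.05 or less, dotted lines at 1 and -1, and genes with too few counts left out. SOX9 in WM164 (-6.14) and SOX10 in A375 (3.68) lie farthest from 0 among the filled points.

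Whether the response to MAFG differed between lines was tested as a difference of the log2 fold changes in the model of 18 libraries. Between A375 and WM164, 5 of the 9 SOX genes differed (4.39% of all genes), each with the higher response in A375. The differences were 6.70 for SOX9 (SE 0.39, adjusted p = 1.65e-10), 3.73 for SOX10 (SE 0.19, adjusted p = 2.58e-11), 2.73 for SOX6 (SE 0.20), 1.72 for SOX5 (SE 0.12) and 1.28 for SOX4 (SE 0.35, adjusted p = 0.0241). That of SOX4 was lost without WM164 GFP replicate 2 (adjusted p = 0.0507), WM164 MAFG replicate 3 (0.0548), A375 GFP replicate 2 (0.0781) or A375 GFP replicate 3 (0.0661). The SE of the differences come from the spread over all 18 libraries. In the fit of A375 libraries alone, the response had larger SE for SOX6 (0.48) and SOX4 (0.55), so these differences may be less precise than printed. Between A375 and SKMEL28, 4 of 9 differed (4.20% of all genes), SOX10 by 3.66 (SE 0.19), SOX6 by 2.10 (SE 0.21), SOX5 by 2.07 (SE 0.12) and SOX4 by 1.75 (SE 0.35, adjusted p = 0.00275). Between WM164 and SKMEL28, SOX9 was the one gene of 9 that differed (5.10% of all genes), with a difference of -7.10 (SE 0.62, adjusted p = 9.68e-08). SOX9 was already at 0.270 ± 0.211 CPM in SKMEL28 GFP cells, so a fall like that in WM164 could not have been measured there. The smaller responses of SOX6 and SOX13 also differed between these lines, by -0.63 (adjusted p = 0.000314) and 0.56 (adjusted p = 0.0213), the latter lost without WM164 GFP replicate 3, WM164 MAFG replicate 2, SKMEL28 GFP replicate 1 or 2 or SKMEL28 MAFG replicate 3 (adjusted p = 0.0543 to 0.0691). That of SOX5 (0.36, adjusted p = 0.0366) was lost without any of 10 of the 12 libraries (highest adjusted p = 0.105, without SKMEL28 GFP replicate 2). SOX13 did not differ between A375 and WM164 by the test (-0.39, adjusted p = 0.157), but passed without A375 MAFG replicate 1 (-0.53, adjusted p = 0.0179). The differences of SOX6 that involve A375 turned in sign on the TPM scale. Those of SOX8 and SOX11 that involve a line without counts could not be estimated, and the comparisons share the libraries of each line.

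Of 10 further SOX genes, 3 were tested in WM164, 3 in SKMEL28 and 4 in A375, and 1 passed. SOX1, a SoxB1 gene, had 5 to 29 counts in WM164 GFP libraries and 43 to 55 with MAFG (log2 fold change 1.54, SE 0.47, adjusted p = 0.0181) and none in the other lines. SOX12, the third SoxC gene, was the one well expressed, at 89.2 ± 6.54, 53.5 ± 1.29 and 64.7 ± 6.31 CPM in the GFP cells of WM164, SKMEL28 and A375, with log2 fold changes of -0.04 (adjusted p = 0.705), -0.11 (adjusted p = 0.296) and -0.16 (adjusted p = 0.997). SOX18, an endothelial factor, had log2 fold changes of 0.73, -0.09 and -0.69 in that order and did not pass. SOX7 (-2.59, adjusted p = 0.848) and SOX15 (0.19, adjusted p = 0.997) in A375 and SOX7 in SKMEL28 (0.10, adjusted p = 0.916) did not pass either.

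Genes known as targets of SOX10 in melanocytes and Schwann cells were counted as a list of 14. In A375, 2 of 9 tested rose and none fell (0.843% of all genes passed, 123 higher and 10 lower). ERBB3, a neuregulin receptor, had 171, 190 and 126 counts with GFP and 1096, 1069 and 986 with MAFG, 5.98-fold higher (adjusted p = 4.75e-05). MIA, a secreted melanoma protein, had 27, 19 and 27 counts with GFP and 278, 259 and 242 with MAFG, 9.81-fold higher (adjusted p = 0.000117). The median log2 fold change of the 9 was 0.83, against -0.0004 over all genes tested. S100B in A375, added after its values were seen, had 5, 2 and 1 counts with GFP and 19, 36 and 48 with MAFG (adjusted p = 0.0998). It passed with DESeq2 (adjusted p = 0.017), without the count filter (0.025), without A375 MAFG replicate 1 (0.0499) and with all 18 libraries in one model (5.1e-06). The endothelin receptor gene EDNRB, also added, missed the threshold (log2 fold change 1.52, adjusted p = 0.149). It passed in the same settings (0.021, 0.0012, 0.0406 and 8.36e-05). Neither passed in the other settings. MITF did not pass in A375, at 28.6 ± 1.35 and 27.4 ± 6.17 CPM (adjusted p = 0.997), and TYR stayed at 0 and DCT at 1 count or less. In the other lines MITF fell, 1.57-fold in WM164 (adjusted p = 1.55e-08) and 1.15-fold in SKMEL28 (adjusted p = 0.00967, edgeR).

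In WM164, where SOX10 itself did not pass, 2 of 11 SOX10 targets rose and 6 fell (31.8% of all genes passed, 2580 higher and 2485 lower). MIA rose 1.31-fold and ERBB3 1.21-fold, whereas the pigment enzymes DCT and TYR fell 3.12-fold and 2.94-fold, DCT from 36399, 45199 and 35258 counts to 13601, 12522 and 13109. In SKMEL28, where SOX10 did not pass either, 5 of 12 rose and 3 fell (29.9% of all genes, 2265 higher and 2375 lower). EDNRB, the endothelin receptor, rose 1.79-fold, from 2075, 1309 and 1934 counts to 3582, 3308 and 3191, and S100B, a calcium-binding protein of the melanocyte and glial lineages, 1.49-fold, whereas CDH19 fell 2.73-fold and TYR 1.18-fold. The median log2 fold change of the list was -0.63 in WM164 and -0.017 in SKMEL28, against -0.0015 and -0.0080 over all genes tested.

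**Figure D4:**
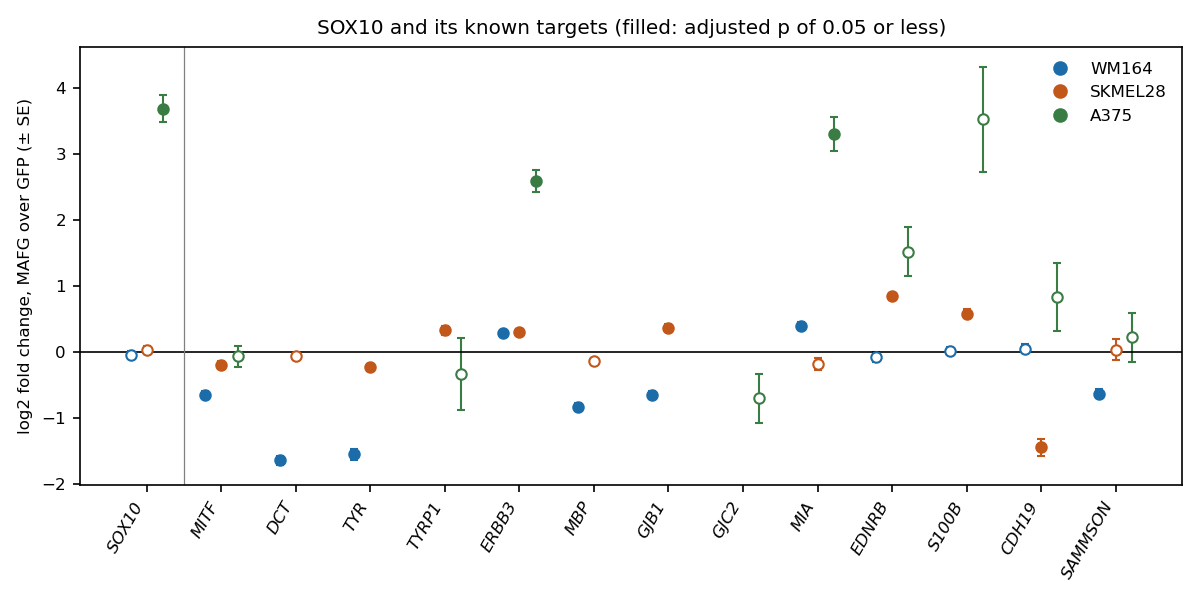
Log2 fold change of MAFG over GFP (y axis, points with SE) for SOX10, left of the line, and each of its listed targets that was tested (x axis), in WM164, SKMEL28 and A375, with filled points at an adjusted p of 0.05 or less. Among the filled points of A375 are MIA (3.29) and ERBB3 (2.58), S100B (3.52) is open, and in WM164 DCT and TYR lie lowest.

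Of 12 cartilage genes known as targets of SOX9 with SOX5 and SOX6, 6 of 10 tested rose in WM164, each by more than 2-fold, and none fell, in the line where SOX9 itself fell (6.94% of all genes were differentially expressed, 786 higher and 319 lower). HAPLN1, a link protein of hyaluronan, had 2725, 3147 and 2695 counts with GFP and 11513, 11192 and 14412 with MAFG, 4.09-fold higher (adjusted p = 2.06e-14). COL9A3, a chain of collagen IX, rose 2.13-fold (adjusted p = 3.31e-10). In SKMEL28, 2 of 7 rose and 3 fell (29.9% of all genes). ACAN, the core of aggrecan, rose 2.47-fold and COL9A3 2.84-fold, whereas COL27A1 fell 1.69-fold and COL11A1 1.14-fold. In A375, COL9A3 was the 1 of 4 that passed (0.843% of all genes), with 56, 142 and 83 counts against 380, 341 and 406 (3.67-fold higher, adjusted p = 0.017). COL2A1 and COMP, defining genes of cartilage, did not pass the count filter in any line. Of 4 targets of SOX4 and SOX11, none passed of 2 tested in A375. All 3 tested fell in SKMEL28, where SOX4 fell (29.9% of all genes passed, 2375 of them lower), among them the neuronal tubulin TUBB3 (log2 fold change -0.42, adjusted p = 0.000114) and TEAD2 (-2.04, adjusted p = 0.00551). Counts were low for TEAD2 (19 to 55 with GFP, 6 to 16 with MAFG) and for DCX (52 to 64 and 10 to 33). The fall of SOX4 did not pass with the spread of all 18 libraries (adjusted p = 0.0557, edgeR), and a link to it was not tested. In WM164, TUBB3 rose (0.24, adjusted p = 0.00436) and TEAD2 fell (-0.41, adjusted p = 0.00625).

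Among 12 factors known to act with SOX proteins, 5 of 10 tested rose and 4 fell in WM164 (31.8% of all genes passed), 1 of 9 rose and 4 fell in SKMEL28 (29.9%), and 1 of 9 rose in A375 (0.843%). TFAP2B, an AP-2 factor of the neural crest, had no count in any GFP library. It had 311, 268 and 290 counts with MAFG in WM164 and 65, 80 and 77 in A375, at least 91.5-fold and at least 22.8-fold higher (adjusted p = 2.65e-11 and 0.00318), and 0, 0 and 6 in SKMEL28. LEF1 rose and TFAP2A and POU3F1 fell in WM164 (log2 fold changes of 0.47, -0.69 and -1.43). In SKMEL28, POU3F2, which marks invasive melanoma, rose (log2 fold change 0.58), and POU3F1 and the SOX10 partner EGR2 fell (-2.78 and -2.83).

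Over the 18 libraries, the pattern of a SOX gene largely follows the 3 lines, so the following Pearson r of log2 CPM are descriptions. SOX10 was most like MIA (0.996), MYH14 (0.994) and ERBB3 (0.993) among 18766 genes. SOX6 was most like S100B (0.998), SOX5 like EGR3 (0.989) and SOX9 like NAV3 (0.956). SOX8, SOX13, SOX4 and SOX11 were most like PPFIA1 (0.982), LMF2 (0.996), SESN3 (0.996) and SOHLH2 (1). SOX2 had the weakest likeness, to COBL (0.842). Among the 9 genes, SOX10 went with SOX6 (0.965), SOX5 (0.95) and SOX4 (0.944) and against SOX11 (-0.918) and SOX9 (-0.74).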

How the data were processed

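RNA was sequenced from 18 libraries, 3 for each of 6 conditions (WM164, SKMEL28 and A375 cells with MAFG or GFP), grouped by their labels. According to the study's methods and processing notes, the authors trimmed reads with cutadapt 1.8.1, aligned them to GRCh38 with STAR 2.7.7a and deposited raw counts of uniquely aligned reads per gene. The authors also deposited TPM, corrected for gene length, for which the notes name RSEM 1.3.0. The strand setting and the annotation release are not given in the sources used here. Ambiguous reads can therefore be lost or shared where genes overlap, and the counts and TPM of a gene with many isoforms such as SOX6 can differ.

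Total counts per library ranged from 20122172 to 39025042 (median 31061375). Counts were tested with edgeR 4.0.16 in R 4.3.3 (TMM normalisation, filterByExpr, quasi-likelihood F test, Benjamini-Hochberg adjustment over all genes tested), on the 6 libraries of a line for MAFG against GFP and on all 18 for lines and for differences of response. Standard errors are the log2 fold change over the square root of F. Printed CPM were normalised over all 18 libraries, whereas log2 fold changes of a line come from its own fit. A condition with at most 3 counts in every library was set to 3 counts per library to bound a fold, which covers counting error only. Alternatives used DESeq2 1.42.0, its size factors, other count filters, the replicate number as a block, limma 3.58.1 on log2(TPM + 1) and log2(TPM + 0.1), all 18 libraries in one model and each library left out. For comparisons of lines, a fit of only the 6 GFP libraries of the pair was added. Tests were checked on simulated counts.

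The 9 genes, the lists of targets, partner factors, other SOX genes, noncoding genes and cell type markers, and the tests were chosen with earlier results of these data known. All 9 genes are named. From each list of targets and partners, the 2 genes with the smallest adjusted p in each direction are named, from the other SOX genes every one tested, and for likeness the gene or genes of highest r. Some genes planned for the list of SOX10 targets are not reported here, and the list was counted without them. S100B and EDNRB in A375, MITF, COL2A1, COMP, DCX, TYRP1, PMEL, KRT10 and the levels of TYR and DCT in A375 were added after their values were seen. Positions are those of GENCODE 44. Promoters came from RefSeq and were checked on the same build.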

Additional observations from a re-analysis of the deposited data

Results flagged for a closer look

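For 10 results, the response to MAFG (log2 fold change over GFP) differed between lines by the test of the difference itself in edgeR, with an adjusted p up to 0.05 and a difference above 1. SOX9 responded differently in WM164 from both other lines, with a difference of 6.70 for A375 minus WM164 (adjusted p = 1.65e-10) and -7.10 for WM164 minus SKMEL28 (adjusted p = 9.68e-08). SOX9 fell in WM164, and in A375 and SKMEL28 it did not pass. As it had only 10, 9 and 1 counts in the SKMEL28 GFP libraries, a fall of the size seen in WM164 could not have been measured there. The difference of WM164 minus SKMEL28 lay between -7.18 and -1.08 under the other settings with all libraries kept.

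SOX10 differed by 3.73 for A375 minus WM164 and by 3.66 for A375 minus SKMEL28 (adjusted p = 2.58e-11 and 1.01e-10). SOX5 differed by 1.72 and 2.07 (adjusted p = 2.53e-09 and 2.57e-10) and SOX6 by 2.73 and 2.10 (adjusted p = 6.97e-09 and 6.1e-07) in the same order. SOX4 differed by 1.28 and 1.75 (adjusted p = 0.0241 and 0.00275), with 48, 10 and 23 counts in the A375 GFP libraries. In the fit of A375 libraries alone, SOX4 did not pass (adjusted p = 0.8, edgeR) and the SOX6 call was lost without any one library. The comparisons share the libraries of each line, so they are not independent of each other.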

How the results depend on the processing

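Over 62 results under their alternatives, 878 of 968 values kept direction and side of the threshold, 53 lost the call, 11 gained one and 26 changed sign. These 62 leave out line comparisons and response differences of a gene when no library of a group involved exceeded 3 counts. Among the calls left out, SOX2 between A375 and WM164 and SOX8 between A375 and SKMEL28 were lost on both TPM scales. They were also lost with only the 6 GFP libraries of the pair. SOX8 between A375 and WM164 and SOX11 in both A375 comparisons were kept in these settings. The differentially expressed count in WM164 went from 1 to 2 with DESeq2, without the count filter and with all 18 libraries in one model, and to 4 with no limit on the fold. In SKMEL28 it went from 0 to 3 with no limit on the fold and lay between 0 and 1 with a library left out, and in A375 from 3 to 5 with all 18 libraries, 4 with DESeq2 and without the count filter, and 2 without any one library and on both TPM scales. With no limit on the fold, the response of 4 genes rather than 1 differed between WM164 and SKMEL28. On log2(TPM + 1), the GFP difference between WM164 and SKMEL28 counted 2 genes rather than 5, the response difference between A375 and WM164 counted 3 rather than 5 (also 3 on log2(TPM + 0.1)), and that between A375 and SKMEL28 2 rather than 4. The cause was not tested.

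Values that changed sign on log2(TPM + 1) and log2(TPM + 0.1) are given in that order, and on these scales the median of all genes moved too, to 0.117 and 0.172 in WM164, -0.124 and -0.172 in SKMEL28 and -0.0782 and -0.106 in A375. Relative to these medians the signs of SOX10, SOX6 and SOX4 in WM164 and of SOX10 and SOX5 in SKMEL28 are not informative, as the values lie close to them. For MAFG against GFP they were 0.15 and 0.15 for SOX10, 0.11 and 0.11 for SOX6 and 0.10 and 0.12 for SOX4 in WM164, -0.14 and -0.14 for SOX10 and -0.11 and -0.13 for SOX5 in SKMEL28, and -0.13 and -0.41 for SOX6 in A375. SOX6 gave -0.62 and -0.65 for WM164 against SKMEL28 with GFP, where the medians were -0.264 and -0.454. For differences of response, with medians of -0.157 and -0.25 (A375 minus WM164), 0.0431 and 0.0741 (A375 minus SKMEL28) and 0.204 and 0.328 (WM164 minus SKMEL28), SOX6 gave -0.23 and -0.52 (A375 minus WM164) and -0.30 and -0.59 (A375 minus SKMEL28), SOX9 0.35 and 0.11 (A375 minus SKMEL28) and SOX10 0.29 and 0.29 (WM164 minus SKMEL28). With a library left out, SOX5 in SKMEL28 lay between -0.024 and 0.069, SOX9 (A375 minus SKMEL28) between -0.84 and 0.17 and SOX8 (WM164 minus SKMEL28) between -0.33 and 1.44.

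Genes differentially expressed in A375 numbered 105 over the whole table, 153 without MAFG replicate 1, 55 to 74 without another library, 64 with the replicate block, 173 with DESeq2, 216 without the count filter and 311 with all 18 libraries in one model. They numbered 23 and 36 on the 2 TPM scales. Libraries with the same replicate number showed no shared deviation (correlations of -0.0397 to 0.0302). Whether they were prepared in pairs is not stated and cannot be told from these values. With the replicate block, the A375 count was 2 rather than 3, as SOX6 did not pass (adjusted p = 0.146), the difference of SOX5 between WM164 and SKMEL28 did not pass (adjusted p = 0.0508), and no other call changed. SOX2, SOX8 and SOX9 in SKMEL28 and SOX2, SOX4 and SOX6 in A375 rest on fewer than 100 counts in every library, which limits their precision.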
